A study of Mus musculus with 16 samples.

Results

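The guidance genes described here are the ligands and receptors that steer migrating cells, axons and vessels: Slits and their Robo receptors, netrins and their Unc5 receptors, ephrins and Eph receptors, and semaphorins with their plexin receptors. They were picked by gene name with no filter on values, and 56 of the 13474 genes in the deposited count table carried such a name. The families themselves were chosen with earlier results of these data known. The 56 were 3 Slits, 3 Robos, 3 netrins, 3 Unc5 receptors, 8 ephrins, 9 Eph receptors, 19 semaphorins and 8 plexins. A further 10 mouse genes of these families, Epha5, Epha6, Epha8, Epha10, Ephb1, Ntn5, Plxnb3, Robo4, Sema5b and Unc5d, were not analysed here. The RNA came from mouse bone marrow mesenchymal stem/progenitor cells (MSPCs), stromal cells that can become osteoblasts, of strain C57BL/6 at passage 5 to 10. Wild type (WT) cells were set against cells labelled as a knockout (KO, Nmp4-/-) of Zfp384, also called Nmp4, a zinc finger protein of the nucleus. The day 3 wells were seeded at 25 cells/mm2, were kept in a non-differentiating medium without added agents and were harvested 3 days later. The day 7 wells were seeded at 62 cells/mm2 in another medium, received ascorbic acid (5 µg/mL), dexamethasone (10 nM) and glycerol 2-phosphate (10 mM) at 48 hours and were harvested at 7 days as early osteogenic cells. Each of the 4 groups held 4 libraries of 1 biological replicate, each library counted as a well. The labels do not say what the b in the WT codes 1b and 10b means. With 1 biological replicate the tests take their error from well-to-well spread, and genotype cannot be told apart from culture. A difference between days is likewise one of time, medium, density and agents together.

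Guidance ligands are either secreted (Slits, netrins, class 3 semaphorins) or held on the cell surface (ephrins, class 4 to 7 semaphorins), and their receptors turn contact into local assembly or collapse of the actin cytoskeleton. Several pairs are known from bone: ephrinB2 on osteoclasts signals with EphB4 on osteoblasts in both directions, Sema4D from osteoclasts restrains osteoblasts through plexin-B1, and Sema3A binds neuropilin-1 with A-type plexins and protects bone mass. Slit3 acts on osteoblasts and on bone vessels, and netrin-1 acts on osteoclast precursors through Unc5b.

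Libraries held 31285188 to 47635039 counted reads, and levels are TMM-scaled CPM (counts scaled to a common library size), well by well in the order of the well codes. Log2 fold changes are KO-labelled over WT or day 7 over day 3, each with its standard error (SE), and an interaction is the genotype difference at day 7 minus that at day 3. Zfp384, the gene targeted in the KO, did not show a loss of RNA: its mean was 81.9 ± 1.54 CPM (SD, n = 4) in day 3 WT wells and 91.5 ± 1.73 CPM in the KO-labelled ones, and the day 7 means were 88.1 ± 3.17 and 117 ± 5.03 CPM, so whole-gene counts do not check the labels, and the libraries are called KO-labelled. Over all genes, 43.4% were called lower and 43% higher in KO-labelled libraries at day 3, and 44.3% and 41.7% at day 7. Of 12 marrow stromal progenitor markers, 8 were called lower and 3 higher in KO-labelled libraries at day 3, and 9 and 3 at day 7. Their sum was 6151 to 6347 CPM in WT and 1584 to 1633 CPM in KO-labelled libraries at day 3. At day 7 it was 7376 to 8067 against 1323 to 1410 CPM. Cxcl12 alone had a mean of 4831 CPM in WT at day 3. Of 9 osteoblast markers, 4 were called lower and 2 higher at day 3, and 1 lower and 7 higher at day 7. Their sums, 13090 to 13918 against 18035 to 20311 CPM at day 3 and 18043 to 20261 against 30362 to 36405 CPM at day 7, were mostly Col1a1, at day 3 means of 13192 and 18759 CPM. Markers of macrophages and other blood cells (10 of 10 in the table) were all called lower at day 3 and 9 of them at day 7, with sums of 127 to 142 against 31.7 to 38.5 CPM and then 143 to 163 against 17.9 to 21 CPM. The 5 adipocyte markers in the table (of 6) were all called lower at both days, summing to 298 to 312 against 25.4 to 27.5 CPM and then 202 to 230 against 60.4 to 67.7 CPM. The 3 osteoclast markers (of 7) summed to 47.6 to 53.5 against 7.28 to 8.09 CPM at day 3, where all 3 were called lower. At day 7 they summed to 97.8 to 106 against 109 to 123 CPM, with 1 called higher and 2 lower. Most of the day 7 sum was Ctsk, the higher one, at means of 82.5 and 109 CPM. The 2 endothelial markers (of 8) summed to 2.03 to 3.01 against 2.72 to 3.26 CPM at day 3, with 1 called higher and 1 lower. At day 7 they summed to 5.98 to 7.2 against 18.8 to 22.8 CPM, and both were called higher. The 4 Schwann and neural markers (of 9) summed to 9.63 to 11.8 against 66 to 73 CPM at day 3. At day 7 they summed to 31.2 to 39.4 against 28.5 to 32.7 CPM. Of these 4, 1 was called higher and 2 lower at day 3, and 1 higher and 3 lower at day 7. Tubb3 was at a mean of 68.3 CPM in KO-labelled libraries at day 3, where Ngfr was at 0. The part of these shifts in the guidance genes was not tested, and in bulk RNA fewer cells of a type and less RNA per cell cannot be told apart. Genotype differences also moved by chromosome: taking KO-labelled over WT at day 3, genes on chromosome 13 had a median log2 fold change of 0.82, against 0.68 on chromosomes 4 and 18, 0.41 on chromosome 7, -0.38 on chromosome 6, -0.44 on chromosome 11 and -0.46 on chromosome 12. Such values are given again beside some of the members they touch, but not beside all of them.

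Most guidance genes differed between the genotypes, some of them by a large factor, and the differences ran in both directions within most families. At day 3, 51 of the 56 members passed edgeR's quasi-likelihood test (p adjusted over all genes by Benjamini-Hochberg, threshold 0.05), against 86.4% of all genes tested; 22 were higher (all genes 43%) and 29 lower (43.4%) in the KO-labelled libraries. With a change of at least 2-fold as well, 28 members passed, 9 higher (all genes 11.7%) and 19 lower (17.2%), against 29% of all genes. At day 7, 52 members passed (all genes 86%), 25 higher (41.7%) and 27 lower (44.3%), and 33 passed with at least 2-fold (30.7%), 14 of them higher (13.7%) and 19 lower (16.9%). The share of members called was thus close to that of all genes, while the share past 2-fold was larger, and the members' median absolute log2 fold changes, 1.00 and 1.13 at days 3 and 7, exceeded the 0.57 and 0.59 of all genes. These counts depend on how the libraries are scaled: using library sizes back-calculated from the authors' normalized columns, the split at day 3 became 27 higher and 23 lower and that at day 7 became 32 and 24, because that scaling moved the median of all genes to 0.49 and 0.55. Ligands and receptors did not divide by direction. At day 3, 13 ligands were higher and 19 lower of 33, and 9 receptors were higher and 10 lower of 23; at day 7 the counts were 14 and 17 for ligands and 11 and 10 for receptors.

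The direction of most members held across the 2 days, as did that of most genes in the table. Of the 56, 18 were called higher (all genes 32%) and 22 called lower (33.9%) in KO-labelled libraries at both days. A further 8 were called in opposite directions (all genes 10.6%): Sema3b, Sema4f, Sema7a, Ephb3, Efna1 and Plxna3 went from lower to higher, and Sema3e and Efna2 from higher to lower. This set depends on scaling: with the authors' library sizes 4 were called in opposite directions, of which Sema3b, Sema3e and Efna1 were among the 8 and Efnb3 was not, and with chromosomes centred there were 9, with 5 of the 8 among them. Another 7 were called at 1 day, and 1, Epha7, at neither. Epha7 lies on chromosome 4, with medians of 0.68 at day 3 and 0.61 at day 7. The 2 days used separate wells, which differed in density, medium and agents. Each group held 1 biological replicate, so a direction shared by the days cannot be told apart from a difference between cultures. The genotype difference itself changed between the days (an interaction of genotype and day) for 42 members, against 66% of all genes; in 24 (32.5%) the KO-labelled libraries gained relative to WT by day 7 and in 18 (33.5%) they lost. Of these, 15 changed by at least 2-fold (16.2%), 9 upward (9.21%) and 6 downward (7.04%). Between the days, 49 members passed in WT (all genes 67.3%), 28 higher (32.3%) and 21 lower (34.9%) at day 7, and 50 in KO-labelled cells (79.9%), 28 higher (40.6%) and 22 lower (39.3%). At least 2-fold changes between days numbered 17 in WT (all genes 9.67%) and 23 in KO-labelled cells (21.3%), with 10 and 16 of them higher (5.89% and 12.5%) and 7 and 7 lower (3.79% and 8.79%). All 56 members passed the filter on low counts; 45 reached 1 CPM in each of the 4 group means, 11 fell below it in at least 1 group, and only Plxna4 stayed below it in all 4.

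**Figure D1:**
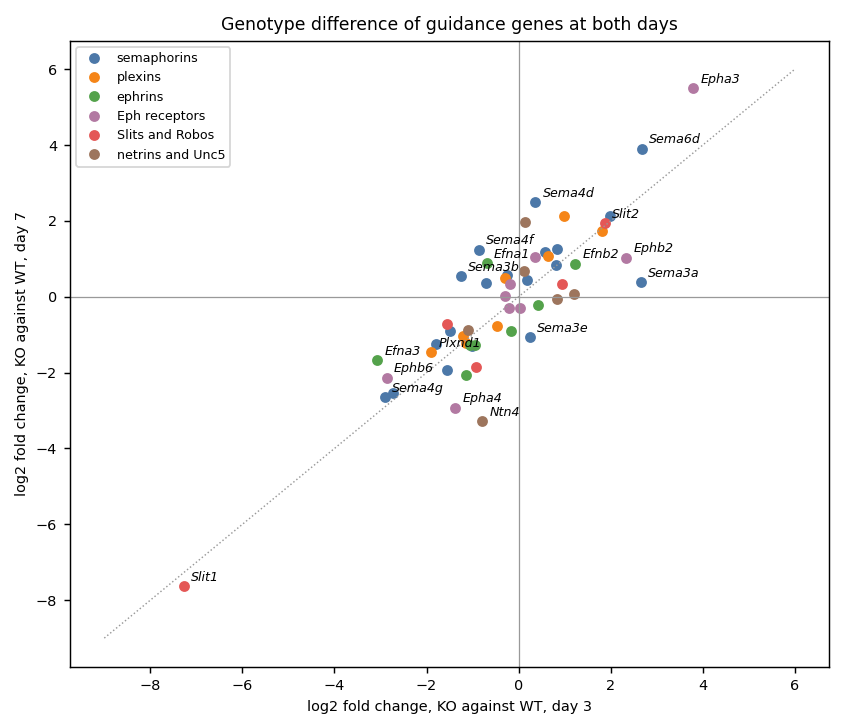
Each point is 1 guidance gene, with the log2 fold change of KO-labelled against WT libraries at day 3 on the x axis and at day 7 on the y axis, coloured by family; the dotted line marks equal values. 55 of the 56 members are drawn, since Robo3 had no counts in the KO-labelled libraries. Slit1 lies far below all others at -7.27 and -7.63, Epha3 is the highest at 3.79 and 5.50, and Sema3a lies at 2.65 for day 3 but 0.39 for day 7.

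The 3 Slits, secreted ligands of the Robo receptors, split in the most marked way: Slit1 was almost absent from the KO-labelled libraries, Slit3 was lower and Slit2 was higher, at both days. The Slit1 levels were 15.5, 15.5, 15.2 and 15.5 CPM in the WT wells and 0.0851, 0.189, 0.0314 and 0.0653 CPM in the KO-labelled wells at day 3. At day 7 Slit1 read 13.5, 13.2, 13.8 and 12 CPM and 0.0758, 0, 0.0801 and 0.0959 CPM, respectively. No KO-labelled well exceeded 0.189 CPM, and none of the WT wells fell below 12 CPM. Slit1 (chr19:41600257-41743856, minus strand, mm10) therefore rested on 13 counts in all KO-labelled wells at day 3 against 2587 in WT, a ratio of 160 in pooled CPM, and on 9 against 1928 at day 7, a ratio of 209. The fitted log2 fold changes were -7.27 (SE 0.17, adjusted p = 6.15e-25) and -7.63 (SE 0.19, adjusted p = 1.1e-24). The Slit2 levels were 22.8, 23.6, 24.4 and 22.9 CPM in the WT wells and 85.3, 86.9, 84.8 and 85.2 CPM in the KO-labelled wells at day 3. At day 7 Slit2 read 44.8, 42.2, 39.8 and 46.3 CPM and 171, 156, 163 and 173 CPM, respectively. Every KO-labelled well lay above every WT well of its day, and each genotype was higher at day 7. Slit2 (chr5:47983155-48306282, plus strand) differed by 1.87 (SE 0.04, adjusted p = 6.21e-25) at day 3 and by 1.94 (SE 0.04, adjusted p = 4.9e-26) at day 7 on the log2 scale, and it rose between the days by 0.88 in WT and 0.95 in KO-labelled cells. Its interaction was 0.07 (SE 0.06, adjusted p = 0.336), so a change in the genotype difference was not detected.

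Slit3, the Slit known from bone, was the leading Slit of the WT cells. The Slit3 levels were 96.5, 98.9, 93.5 and 104 CPM in the WT wells and 33.4, 35.1, 35.5 and 30 CPM in the KO-labelled wells at day 3. At day 7 Slit3 read 118, 116, 115 and 132 CPM and 70.8, 79.9, 67.6 and 76.6 CPM, respectively. The WT wells were higher than the KO-labelled wells at both days without overlap, and the gap narrowed by day 7. The difference for Slit3 (chr11:35121456-35708507, plus strand) was -1.55 (SE 0.06, adjusted p = 1.31e-18) at day 3 and -0.71 (SE 0.05, adjusted p = 4.28e-12) at day 7, with an interaction of 0.84 (SE 0.08, adjusted p = 6.41e-10). Slit3 lies on chromosome 11, whose medians were -0.44 and -0.46. Centred on that median the differences were -1.11 and -0.29. With the authors' library sizes they were -1.05 and -0.13, both still called lower. Levels per kilobase of counted exon allow the 3 genes to be compared with each other, and as shares of the family they do not depend on library scaling. Slit3 made up 77.6% ± 0.891 (SD, n = 4) of the Slit total in WT at day 3 and 76% ± 0.945 at day 7. In KO-labelled cells Slit2 led instead, with 59.8% ± 1.78 at day 3 and 56.7% ± 2.41 at day 7. The exchange of the leading Slit was thus present in all wells of both days.

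Among the Slit receptors, Robo1 was lower in KO-labelled cells, Robo2 was higher, and Robo3 held no count in any KO-labelled library. The Robo1 levels were 40.3, 44.6, 46.1 and 45.4 CPM in the WT wells and 22.9, 23.1, 23.4 and 23.5 CPM in the KO-labelled wells at day 3. At day 7 Robo1 read 60.7, 60.9, 58 and 62.2 CPM and 17.3, 17.9, 15.3 and 16.8 CPM, respectively. The genotypes did not overlap at either day; WT rose between the days while KO-labelled cells fell. Robo1 (chr16:72663149-73046100, plus strand) differed by -0.93 (SE 0.05, adjusted p = 1.1e-16) at day 3 and -1.84 (SE 0.05, adjusted p = 9.48e-24) at day 7, and the difference between these, -0.92 (SE 0.07, adjusted p = 2.41e-12), passed the test. Robo2 was less abundant, at 4.38 ± 0.356 and 8.41 ± 0.559 CPM (SD, n = 4) in WT and KO-labelled wells at day 3, then 9.35 ± 1.6 and 11.8 ± 0.433 CPM at day 7. Its log2 fold change was 0.94 (SE 0.10, adjusted p = 9.59e-10) and then 0.34 (SE 0.09, adjusted p = 0.000842). Robo2 lies on chromosome 16, with a median of 0.18 at each day. With chromosomes centred its day 7 call was lost, as 0 Robos were then called higher. Robo3, an unusual Robo that in mammals binds Slits poorly, read 1.06, 1.4, 0.916 and 1.44 CPM in WT at day 3 and 0.271, 0.106, 0.329 and 0.368 CPM in WT at day 7. All 8 KO-labelled libraries held 0 counts of it. Taking 3 counts over a group as the limit that a count of 0 allows, Robo3 was at least 53.3-fold lower at day 3 (0 against 199 counts) and at least 12.7-fold lower at day 7 (0 against 39 counts). Robo1 led its family in all groups, with 88% ± 0.802 of the Robo level per kilobase in WT and 74.6% ± 1.28 in KO-labelled cells at day 3, and 86.8% ± 1.76 and 60.2% ± 2.08 at day 7.

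The netrins, laminin-related secreted cues, showed a second exchange of the leading member, from Ntn4 in WT to Ntn1 in KO-labelled cells. The Ntn1 levels were 12.8, 13.2, 13.5 and 13.1 CPM in the WT wells and 30.3, 31.3, 28.7 and 31 CPM in the KO-labelled wells at day 3. At day 7 Ntn1 read 10.3, 10.6, 10.3 and 10.6 CPM and 10.9, 10.1, 10.4 and 12.3 CPM, respectively. At day 3 all KO-labelled wells lay above all WT wells, whereas at day 7 the groups overlapped. Ntn1 (chr11:68209364-68386826, minus strand) was 2.31-fold higher at day 3, with a log2 fold change of 1.21 (SE 0.05, adjusted p = 3.89e-18); at day 7 it was 0.06 (SE 0.06, adjusted p = 0.382), which did not pass, and the interaction was -1.15 (SE 0.08, adjusted p = 9.11e-13). Ntn1 is on chromosome 11, and with each chromosome centred on its median the day 7 value became 0.48 (adjusted p = 6.7e-08); with the authors' library sizes it was 0.64 (adjusted p = 1.09e-09). Ntn4, a netrin of basement membranes, moved the other way. The Ntn4 levels were 5.51, 6.74, 7.41 and 7.64 CPM in the WT wells and 3.43, 3.99, 3.83 and 4.63 CPM in the KO-labelled wells at day 3. At day 7 Ntn4 read 10.2, 10.4, 9.95 and 9.79 CPM and 0.833, 1.41, 0.961 and 0.959 CPM, respectively. It was lower in every KO-labelled well at both days, rose between the days in WT and fell in KO-labelled cells. Ntn4 (chr10:93641049-93745972, plus strand) differed by -0.79 (SE 0.11, adjusted p = 1.61e-07) at day 3 and -3.28 (SE 0.13, adjusted p = 2.13e-19) at day 7, and its interaction of -2.50 (SE 0.18, adjusted p = 8.96e-13) was the largest downward one among members of at least 5 CPM in a group. The Ntn3 levels were 1.74, 2.18, 1.69 and 2 CPM in the WT wells and 0.937, 0.835, 1.19 and 0.587 CPM in the KO-labelled wells at day 3. At day 7 Ntn3 read 8.83, 8.31, 8.33 and 9.11 CPM and 4.44, 4.82, 4.38 and 5.34 CPM, respectively. Both genotypes gained Ntn3 by day 7, by 2.19 in WT and 2.41 in KO-labelled cells on the log2 scale, and KO-labelled wells stayed lower, with log2 fold changes of -1.09 (SE 0.17, adjusted p = 7.33e-07) and -0.87 (SE 0.10, adjusted p = 5.27e-09). Ntn3 overlaps Tbc1d24 on the same strand in the annotation, so reads of the 2 genes may have been split. The same limit holds for Slit2 with Gm20475, Slit3 with Gm12122 and Ntn1 with Gm12305. As shares of the netrin level per kilobase, Ntn4 held 51.2% ± 3.24 in WT at day 3 and 53.9% ± 1.15 at day 7. Ntn1 held 41.7% ± 2.9 and 23.4% ± 0.425 in WT, and 74.3% ± 1.79 and 57.6% ± 3.34 in KO-labelled cells.

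Unc5b, a netrin receptor of vessels and osteoclast precursors, supplied at least 93.1% of the Unc5 level per kilobase in each group. The Unc5b levels were 345, 358, 340 and 363 CPM in the WT wells and 400, 387, 366 and 367 CPM in the KO-labelled wells at day 3. At day 7 Unc5b read 291, 287, 274 and 323 CPM and 485, 461, 444 and 479 CPM, respectively. The genotypes were close at day 3, and at day 7 all KO-labelled wells were above all WT wells, since WT fell and KO-labelled cells rose. Unc5b (chr10:60762595-60831581, minus strand) differed by 0.11 (SE 0.04, adjusted p = 0.0133) at day 3, a call lost with library totals as the only scaling (0.04, adjusted p = 0.319) or without KO replicate 5 (0.09, adjusted p = 0.0637), and by 0.67 (SE 0.04, adjusted p = 8.76e-15) at day 7, with an interaction of 0.56 (SE 0.06, adjusted p = 2.71e-09). The Unc5c levels were 21.9, 23.2, 23.7 and 24.7 CPM in the WT wells and 38.2, 42.4, 43.2 and 44.4 CPM in the KO-labelled wells at day 3. At day 7 Unc5c read 13.6, 12.3, 12.3 and 13.5 CPM and 11.1, 11.4, 13.5 and 13.8 CPM, respectively. Unc5c was higher in KO-labelled wells at day 3 by 0.84 (SE 0.06, adjusted p = 1.44e-13); by day 7 both genotypes had fallen, and the ranges overlapped (-0.06 (SE 0.07, adjusted p = 0.463)). With the authors' library sizes the day 7 value of Unc5c turned to 0.52. Unc5a was near 1 CPM: its means were 1.16 ± 0.0744 and 1.27 ± 0.146 CPM at day 3 and 0.323 ± 0.118 and 1.26 ± 0.155 CPM at day 7, where the genotypes differed by 1.96 (SE 0.23, adjusted p = 6.91e-09), on a chromosome (13) with a median of 0.7.

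**Figure D2:**
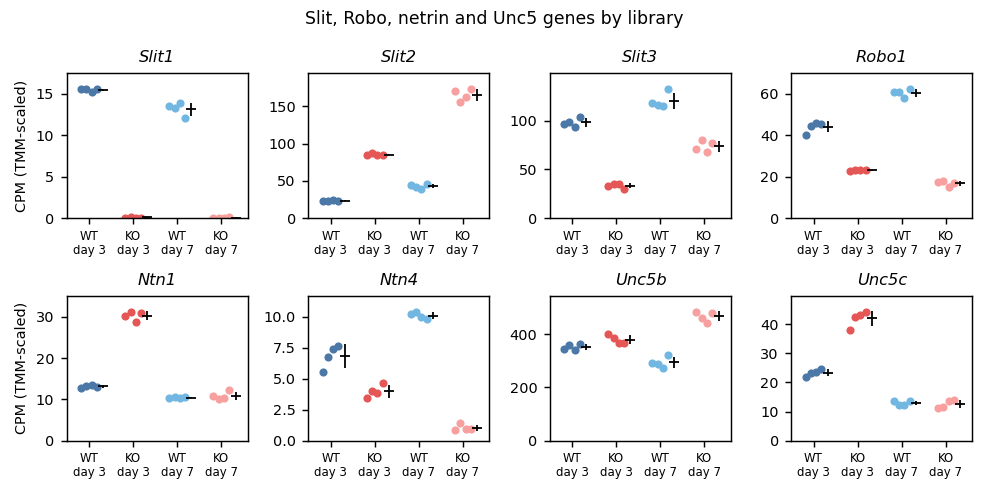
TMM-scaled CPM (y axis, from 0) of 8 Slit, Robo, netrin and Unc5 genes in each of the 16 libraries (points), by group (x axis), with the group mean and SD in black. Slit1 does not exceed 0.189 CPM in the 8 KO-labelled wells against 12 to 15.5 CPM in WT. Against WT, Slit2 is higher and Slit3 lower in KO-labelled wells at both days. Ntn1 is highest in the KO-labelled wells of day 3.

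The 9 Eph receptors, tyrosine kinases that bind ephrins on neighbouring cells, went both ways: at day 3, 3 were higher (all genes 43%) and 3 lower (43.4%) in KO-labelled cells, and at day 7, 4 (41.7%) and 4 (44.3%). With the authors' library sizes the counts were 5 higher and 2 lower at day 3 and 7 and 2 at day 7, and with chromosomes centred 2 and 6 at day 3. At day 7 the highest and the lowest log2 fold change of the receptors belonged to a pair of EphA genes, Epha3 and Epha4, both receptors of ephrin-A5. The Epha3 levels were 0.707, 0.994, 0.549 and 0.758 CPM in the WT wells and 10.8, 10.8, 9.49 and 10.3 CPM in the KO-labelled wells at day 3. At day 7 Epha3 read 0.325, 0.423, 0.356 and 0.339 CPM and 16.9, 17.3, 16.5 and 15.2 CPM, respectively. Epha3 (chr16:63545218-63864157, minus strand) was at or below 0.994 CPM in all 8 WT wells and at or above 9.49 CPM in all 8 KO-labelled wells. It differed by 3.79 (SE 0.12, adjusted p = 2.57e-22) at day 3 and 5.50 (SE 0.13, adjusted p = 3.42e-25) at day 7 on the log2 scale, the largest upward difference among the members at both days, and the interaction was 1.70 (SE 0.23, adjusted p = 2.59e-07). The Epha4 levels were 25.8, 28.2, 27.1 and 27.3 CPM in the WT wells and 9.42, 10.6, 12 and 9.63 CPM in the KO-labelled wells at day 3. At day 7 Epha4 read 28.9, 28.6, 31.9 and 30.6 CPM and 3.84, 3.85, 3.47 and 4.7 CPM, respectively. Here the WT wells were the high ones, without overlap, and the KO-labelled wells fell further by day 7. Epha4 (chr1:77367185-77515088, minus strand), which also binds B-type ephrins, differed by -1.38 (SE 0.07, adjusted p = 2.61e-17) and -2.93 (SE 0.08, adjusted p = 8.66e-24), with an interaction of -1.54 (SE 0.11, adjusted p = 3.59e-13). The genotype difference of these 2 receptors thus widened in opposite directions between the days.

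The 250 bases upstream of the annotated starts of Epha3 and Epha4 are shown because the pair had the highest and the lowest log2 fold change of the Eph receptors at day 7. They are RefSeq sequences of build GRCm38.p6, written 5′ to 3′ on the strand of the gene, and capitals mark GGAATG or CATTCC, the core bound by TEAD factors.
Epha3 (chr16:63864176-63864425, minus strand): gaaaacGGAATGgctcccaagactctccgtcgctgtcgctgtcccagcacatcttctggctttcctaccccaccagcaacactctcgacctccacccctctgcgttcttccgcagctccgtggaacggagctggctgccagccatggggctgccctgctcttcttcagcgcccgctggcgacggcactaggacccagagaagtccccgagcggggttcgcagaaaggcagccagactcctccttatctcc
Epha4 (chr1:77515089-77515338, minus strand): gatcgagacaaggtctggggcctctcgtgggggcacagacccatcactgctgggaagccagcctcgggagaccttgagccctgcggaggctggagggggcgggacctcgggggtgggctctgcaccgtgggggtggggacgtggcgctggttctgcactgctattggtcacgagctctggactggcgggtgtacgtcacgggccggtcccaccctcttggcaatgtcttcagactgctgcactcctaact
The Epha3 window holds 1 such match and begins 18 bases from the start used in the deposited table; the Epha4 window holds none. Neither window holds a run of AAAAAA or TTTTTT, the homopolymer that Nmp4 is known to bind, or the E-box CACGTG. A match describes letters only.

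Epha2, a receptor of ephrin-A1 and ephrin-A2 that responds to cell contact, was the most abundant Eph receptor per kilobase in 3 of the 4 groups. The Epha2 levels were 197, 202, 199 and 194 CPM in the WT wells and 258, 260, 245 and 248 CPM in the KO-labelled wells at day 3. At day 7 Epha2 read 79.2, 80.2, 80.9 and 88 CPM and 174, 179, 153 and 171 CPM, respectively. The KO-labelled wells were above the WT wells at both days, and both genotypes fell by day 7, WT further. Epha2 (chr4:141301221-141329384, plus strand) changed between the days by -1.27 (SE 0.04, adjusted p = 7.23e-21) in WT and -0.58 (SE 0.04, adjusted p = 9.34e-14) in KO-labelled cells on the log2 scale. The genotype difference was 0.35 (SE 0.04, adjusted p = 2.6e-09) at day 3 and 1.04 (SE 0.04, adjusted p = 1.09e-19) at day 7. Epha2 lies on chromosome 4, whose medians were 0.68 and 0.61; centred on these, the day 3 difference reversed to -0.26 and the day 7 difference was 0.47. Ephb2 is on the same chromosome and was at 17 ± 1.3 and 85.9 ± 6.15 CPM (SD, n = 4) at day 3, a log2 fold change of 2.34 (SE 0.06, adjusted p = 2.32e-22), and at 24.6 ± 1.38 and 50.2 ± 4.27 CPM at day 7, 1.03 (SE 0.06, adjusted p = 1.59e-14). Its interaction was -1.31 (SE 0.09, adjusted p = 6.42e-13), since WT rose and KO-labelled cells fell. Ephb6, an Eph receptor without kinase activity, had the most negative fold change of the Eph receptors at day 3: 118 ± 3.27 against 16.2 ± 1.42 CPM, or -2.87 (SE 0.05, adjusted p = 1.42e-28), and then 101 ± 1.51 against 23 ± 1.2 CPM, or -2.14 (SE 0.05, adjusted p = 3.59e-26). It led the family per kilobase in WT at day 7 with 28.6% ± 0.485, where Epha2 led the other groups with 41.3% ± 0.716 (WT, day 3), 53.1% ± 0.426 (KO-labelled, day 3) and 42.3% ± 1.04 (KO-labelled, day 7). The chromosome of Ephb6, 6, had medians of -0.38 and -0.31.

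Ephb4, the osteoblast receptor of ephrinB2, stayed between 55.9 and 73.1 CPM in all 16 libraries. The Ephb4 levels were 67.2, 69.9, 64.9 and 66.9 CPM in the WT wells and 68.5, 69, 67 and 69.4 CPM in the KO-labelled wells at day 3. At day 7 Ephb4 read 71, 72.7, 70.8 and 73.1 CPM and 58.8, 62.3, 55.9 and 58.3 CPM, respectively. The groups overlapped at day 3, and at day 7 the KO-labelled wells were all below the WT wells by a small margin. Ephb4 (chr5:137350109-137374522, plus strand) differed by 0.03 (SE 0.04, adjusted p = 0.502) at day 3 and -0.29 (SE 0.04, adjusted p = 2.45e-08) at day 7. Both signs depend on scaling: the day 3 value was -0.12 with chromosomes centred, and the day 7 value was 0.29 with the authors' library sizes. The remaining receptors were Ephb3, at 65.5 ± 2.89 and 57.4 ± 2.42 CPM at day 3 and 74 ± 2.54 and 92.9 ± 7.7 CPM at day 7, Epha1, at most 5.81 CPM in a group mean, and Epha7, at most 2.94 CPM. Ephb3 was slightly lower in KO-labelled cells at day 3 (-0.19 (SE 0.05, adjusted p = 0.000696)) and higher at day 7 (0.33 (SE 0.05, adjusted p = 2.59e-07)); with the authors' library sizes the day 3 value of Ephb3 turned to 0.31 (adjusted p = 5.6e-07). Epha1 rose in both genotypes between the days, by 1.42 and 1.34, and Epha7 fell in both (-1.34 and -1.02 on the log2 scale). Epha1 was called lower in KO-labelled cells at day 7 (-0.29), a value that turned to 0.28 with the authors' library sizes and to 0.01 with chromosomes centred. Epha1 shares its position with Zyx on the other strand, and whether strand was used in counting is not stated.

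Of the 8 ephrins, the membrane-bound ligands of these receptors, 5 were lower (all genes 43.4%) and 2 higher (43%) in KO-labelled cells at day 3, and 6 lower (44.3%) and 2 higher (41.7%) at day 7; with the authors' library sizes the counts were 5 and 3 at both days. Efnb1 had the highest level per kilobase of the 33 ligands in WT. The Efnb1 levels were 303, 314, 307 and 318 CPM in the WT wells and 154, 153, 147 and 147 CPM in the KO-labelled wells at day 3. At day 7 Efnb1 read 324, 342, 348 and 342 CPM and 143, 153, 133 and 132 CPM, respectively. All WT wells were above all KO-labelled wells at both days. Efnb1 (chrX:99136061-99149022, plus strand), a B-type ephrin of the X chromosome, differed by -1.05 (SE 0.04, adjusted p = 2.12e-20) and -1.27 (SE 0.04, adjusted p = 1.73e-22). The Efnb2 levels were 62.1, 62.8, 63.4 and 64.5 CPM in the WT wells and 143, 148, 148 and 155 CPM in the KO-labelled wells at day 3. At day 7 Efnb2 read 32, 32, 33.3 and 32.1 CPM and 58.4, 60.7, 59.8 and 57.7 CPM, respectively. Efnb2 ran the other way, with the KO-labelled wells higher at each day and both genotypes falling between the days. Efnb2 (chr8:8617439-8660773, minus strand) differed by 1.23 (SE 0.03, adjusted p = 1.45e-23) and 0.87 (SE 0.04, adjusted p = 4.49e-19), and changed by -0.97 (SE 0.04, adjusted p = 2.17e-19) in WT and -1.33 (SE 0.03, adjusted p = 5.38e-24) in KO-labelled cells on the log2 scale. The share of Efnb1 in the ephrin level per kilobase was 66.5% ± 0.135 in WT and 46.7% ± 0.838 in KO-labelled cells at day 3, and 72.4% ± 0.687 and 54.6% ± 1.45 at day 7. Efnb3 was at most 3.51 CPM in a group mean and was lower in KO-labelled cells at day 7 (-0.91 (SE 0.14, adjusted p = 1.41e-06)).

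The 5 ephrin-A ligands, which are anchored by a lipid, were all called at each day, 4 of 5 as lower in KO-labelled cells (all genes 43.4% and 44.3%); with the authors' library sizes or with chromosomes centred 3 were lower at day 7. The Efna3 levels were 6.52, 7.67, 6.75 and 5.9 CPM in the WT wells and 1.02, 0.889, 0.691 and 0.555 CPM in the KO-labelled wells at day 3. At day 7 Efna3 read 2.74, 3.41, 3.54 and 2.77 CPM and 1.16, 1.01, 1.01 and 0.671 CPM, respectively. Efna3 (chr3:89314951-89322879, minus strand) was lower in each KO-labelled well than in each WT well, with log2 fold changes of -3.07 (SE 0.16, adjusted p = 5.98e-17) and -1.67 (SE 0.17, adjusted p = 2.23e-10). Efna5 was at 32.6 ± 1.23 and 14.8 ± 0.747 CPM (SD, n = 4) at day 3, then 43.5 ± 2.11 and 10.4 ± 0.883 CPM at day 7, a log2 fold change of -1.14 (SE 0.06, adjusted p = 1.88e-17) and -2.06 (SE 0.06, adjusted p = 1.89e-23). Efna4 was lower too, with log2 fold changes of -0.95 and -1.26. The exception differed between the days: Efna2 at day 3 and Efna1 at day 7. The Efna1 levels were 9.1, 9.77, 8.99 and 10.2 CPM in the WT wells and 5.82, 6.22, 6.1 and 5.35 CPM in the KO-labelled wells at day 3. At day 7 Efna1 read 10.1, 9.07, 9.35 and 9.25 CPM and 17.4, 17.3, 17.8 and 17.3 CPM, respectively. Efna1 (chr3:89271730-89280951, minus strand) gave no called change in WT (-0.01 (SE 0.07, adjusted p = 0.925)) and rose in KO-labelled cells (1.57 (SE 0.07, adjusted p = 1.46e-18)), so that it went from below WT, -0.69 (SE 0.07, adjusted p = 4.15e-10), to above it, 0.88 (SE 0.06, adjusted p = 1.17e-13), with an interaction of 1.57 (SE 0.09, adjusted p = 1.16e-14). The Efna2 levels were 4.27, 5.3, 4.09 and 4.66 CPM in the WT wells and 6.24, 5.95, 6.76 and 5.68 CPM in the KO-labelled wells at day 3. At day 7 Efna2 read 6.82, 7.49, 7.4 and 7.92 CPM and 6.62, 6.46, 5.87 and 6.61 CPM, respectively. Efna2, a ligand of Epha2 on osteoclasts, was higher in KO-labelled wells at day 3 (0.43 (SE 0.09, adjusted p = 9.4e-05)) and lower at day 7 (-0.21 (SE 0.09, adjusted p = 0.0237)). The day 7 call was lost without WT replicate 11 (-0.18, adjusted p = 0.0777), without KO replicate 15 (-0.17, adjusted p = 0.0808) and with chromosomes centred (-0.04), and the value turned to 0.36 with the authors' library sizes.

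**Figure D3:**
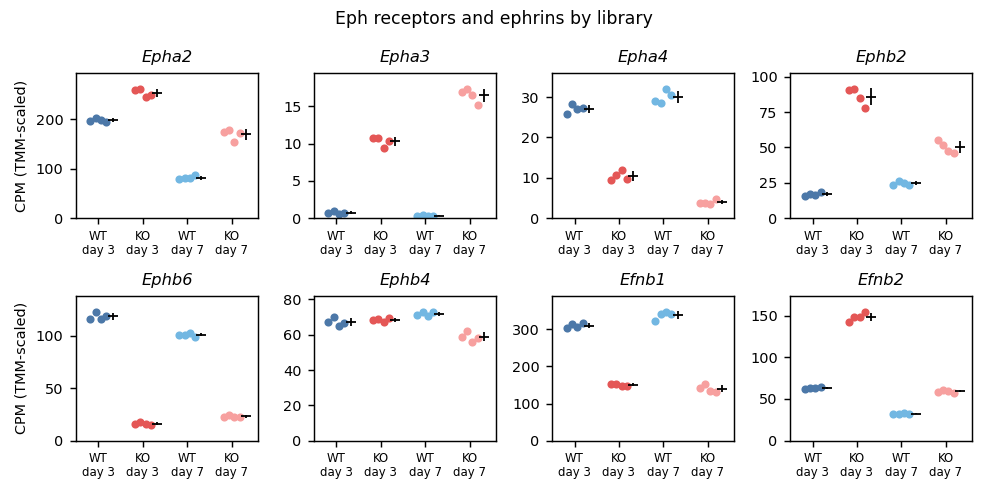
TMM-scaled CPM (y axis, from 0) of 6 Eph receptors and 2 B-type ephrins in each of the 16 libraries (points), by group (x axis), with the group mean and SD in black. In the KO-labelled means Epha3 goes from 10.4 CPM at day 3 to 16.5 CPM at day 7 and Epha4 from 10.4 to 3.96 CPM, and Ephb4 lies between 55.9 and 73.1 CPM in all 16 libraries.

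All 7 class 3 semaphorins, the secreted ones that mostly act through neuropilin and plexin-A receptors, were called at both days (all genes 86.4% and 86%), 4 higher and 3 lower in KO-labelled cells each time, but not the same 4; with chromosomes centred 6 were called at day 3, 3 in each direction. Sema3a, the bone-protective ligand of neuropilin-1, had the largest interaction of the class. The Sema3a levels were 29, 28.8, 29.9 and 30.7 CPM in the WT wells and 176, 180, 197 and 191 CPM in the KO-labelled wells at day 3. At day 7 Sema3a read 81.1, 74.9, 79.5 and 83.8 CPM and 97, 94.4, 117 and 110 CPM, respectively. At day 3 every KO-labelled well was far above every WT well; by day 7 WT had risen and KO-labelled cells had fallen, and the groups still did not overlap. Sema3a (chr5:13396784-13603485, plus strand) was 6.28-fold higher at day 3, 2.65 (SE 0.06, adjusted p = 3.24e-22) on the log2 scale, and 1.31-fold higher at day 7, 0.39 (SE 0.05, adjusted p = 5.83e-07). Its interaction was -2.26 (SE 0.08, adjusted p = 2.14e-17). The Sema3b levels were 7.73, 7.43, 6.9 and 8.04 CPM in the WT wells and 3.8, 2.72, 2.89 and 3.1 CPM in the KO-labelled wells at day 3. At day 7 Sema3b read 15.7, 15.6, 15.2 and 15.9 CPM and 21.5, 23.9, 22.5 and 22.9 CPM, respectively. Sema3b (chr9:107597674-107609241, minus strand) was lower in KO-labelled wells at day 3 and higher at day 7, without overlap either time: -1.26 (SE 0.09, adjusted p = 1.11e-13) and 0.54 (SE 0.06, adjusted p = 4.72e-09). It rose between the days by 1.05 in WT and by 2.86 in KO-labelled cells, and the difference between these was 1.80 (SE 0.11, adjusted p = 1.35e-14). The Sema3e levels were 28.3, 27.1, 30 and 29 CPM in the WT wells and 32.1, 35.5, 34 and 33.9 CPM in the KO-labelled wells at day 3. At day 7 Sema3e read 19.1, 16.5, 17.7 and 17.5 CPM and 7.85, 8.41, 8.75 and 8.91 CPM, respectively. Sema3e (chr5:14025276-14256689, plus strand), which binds plexin-D1 without a neuropilin, fell in both genotypes and more so in KO-labelled cells, 1.62-fold and 4-fold. At day 3 it was slightly higher in KO-labelled wells, 0.24 (SE 0.05, adjusted p = 6.76e-05), a call lost with chromosomes centred (0.10, adjusted p = 0.0691), and at day 7 it was lower, -1.06 (SE 0.06, adjusted p = 1.03e-15).

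The other class 3 members kept their direction. Sema3c was at 16 ± 0.882 and 63.5 ± 5.8 CPM (SD, n = 4) in WT and KO-labelled wells at day 3, then 9.17 ± 1.06 and 39.9 ± 2.22 CPM at day 7, higher by 1.98 (SE 0.07, adjusted p = 1.61e-20) and 2.12 (SE 0.07, adjusted p = 3.28e-20). Sema3f, a ligand of neuropilin-2, was at 49.5 ± 3.35 and 14.3 ± 0.892 CPM and then at 26.7 ± 2.3 and 11.3 ± 1.31 CPM, lower, with log2 fold changes of -1.79 (SE 0.07, adjusted p = 4.75e-19) and -1.24 (SE 0.07, adjusted p = 8.39e-15). Sema3g was lower as well, -2.73 and -2.53, from at most 4.88 CPM, and the weak Sema3d was higher, 0.84 and 1.27, at no more than 3.42 CPM. Sema3a, Sema3c, Sema3d and Sema3e lie on the same chromosome, 5, with a median of 0.16 at day 3 and 0.11 at day 7.

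The 6 class 4 semaphorins, transmembrane ligands several of which bind B-type plexins, moved in the same direction across days in KO-labelled cells. All 6 rose from day 3 to day 7 there (all genes 40.6%), with a median log2 change of 1.19 against 0.01 for all genes, and all 6 had a called positive interaction (all genes 32.5%), with a median of 0.83 against 0.00. In WT 3 rose (all genes 32.3%) and 1 fell (34.9%). With chromosomes centred, or with library totals as the only scaling, 5 of the 6 interactions passed. The Sema4d levels were 2.7, 2.6, 2.81 and 3.38 CPM in the WT wells and 3.32, 3.74, 3.71 and 3.98 CPM in the KO-labelled wells at day 3. At day 7 Sema4d read 1.95, 1.72, 1.81 and 1.24 CPM and 10.6, 9.33, 9.05 and 9.01 CPM, respectively. Sema4d, the osteoclast signal to osteoblasts, fell in WT (-0.76 (SE 0.13, adjusted p = 1.04e-05)) and rose in KO-labelled cells (1.37 (SE 0.10, adjusted p = 7.27e-13)). The ranges of the genotypes overlapped at day 3 and were far apart at day 7. The genotype difference of Sema4d (chr13:51701248-51793747, minus strand) was 0.36 (SE 0.12, adjusted p = 0.00565) at day 3 and 2.49 (SE 0.12, adjusted p = 4.85e-18) at day 7, an interaction of 2.13 (SE 0.17, adjusted p = 4.71e-12). Its chromosome, 13, had medians of 0.82 and 0.7, and with chromosomes centred the values were -0.36 at day 3, a reversal, and 1.82 at day 7. The Sema4g levels were 20.5, 20.3, 22.2 and 21 CPM in the WT wells and 3.15, 2.21, 3.24 and 2.61 CPM in the KO-labelled wells at day 3. At day 7 Sema4g read 35.6, 35.7, 34.6 and 36.5 CPM and 5.58, 5.77, 5.42 and 5.97 CPM, respectively. Sema4g (chr19:44989344-45003395, plus strand) was the one member of the class lower in KO-labelled wells at both days, with log2 fold changes of -2.91 (SE 0.08, adjusted p = 1.26e-23) and -2.65 (SE 0.07, adjusted p = 1.82e-24), while it rose by 0.76 in WT and 1.02 in KO-labelled cells. Its interaction of 0.26 (SE 0.11, adjusted p = 0.04) was the weakest of the class, and without KO replicate 6 of day 3 it was 0.15 (adjusted p = 0.214). The call was also lost without WT replicate 3, 4, 9 or 10b, or KO replicate 8, 14 or 16, left out singly. It was lost too with wells 1 and 1b, and 10 and 10b, summed (0.27, adjusted p = 0.0517). Sema4f went from below to above WT: 2.05 ± 0.338 and 1.12 ± 0.445 CPM at day 3, -0.87 (SE 0.21, adjusted p = 0.000451), and 2.03 ± 0.481 and 4.81 ± 0.429 CPM at day 7, 1.24 (SE 0.17, adjusted p = 1.36e-07). Sema4b and Sema4c were higher in KO-labelled cells at both days, by 0.57 and 1.18 for Sema4b, which lies on chromosome 7 with medians of 0.41 and 0.28, and by 0.18 and 0.45 for Sema4c. Sema4a stayed at or below 2.19 CPM in each group mean.

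Sema5a, a transmembrane semaphorin with thrombospondin repeats, was the semaphorin that rose most in WT among those of at least 5 CPM. The Sema5a levels were 54.8, 49.9, 55.4 and 53.8 CPM in the WT wells and 17.7, 18.1, 18.9 and 18.3 CPM in the KO-labelled wells at day 3. At day 7 Sema5a read 209, 189, 208 and 206 CPM and 54.2, 53.9, 50.7 and 53.5 CPM, respectively. It rose nearly as much in KO-labelled cells from a lower start, and WT wells stayed above KO-labelled wells at both days. Sema5a (chr15:32244813-32696341, plus strand) rose by 1.92 (SE 0.04, adjusted p = 1.33e-25) in WT and 1.54 (SE 0.05, adjusted p = 1.91e-22) in KO-labelled cells, and the genotype difference was -1.55 (SE 0.05, adjusted p = 8.76e-23) and -1.93 (SE 0.04, adjusted p = 1.12e-26). Sema6d, a transmembrane ligand of plexin-A1, was among the members highest in KO-labelled cells relative to WT. The Sema6d levels were 2.27, 1.89, 2.18 and 2.44 CPM in the WT wells and 14.2, 15.2, 13.7 and 13 CPM in the KO-labelled wells at day 3. At day 7 Sema6d read 2.68, 2.94, 2.93 and 2.55 CPM and 42.1, 38.4, 41.8 and 43.4 CPM, respectively. No WT well exceeded 2.94 CPM and no KO-labelled well was below 13 CPM. Sema6d (chr2:124089969-124667789, plus strand) differed by 2.68 (SE 0.08, adjusted p = 2.78e-22) and 3.90 (SE 0.07, adjusted p = 1.7e-27), and its interaction was 1.22 (SE 0.12, adjusted p = 8.62e-10). Sema6b and Sema6c were lower in KO-labelled cells at both days, -1.01 and -1.31 for Sema6b and -1.49 and -0.89 for Sema6c. The 4 class 6 genes all rose from day 3 to day 7 in KO-labelled cells, with a median log2 change of 1.10 (all genes 40.6% and 0.01); in WT 3 of the 4 rose (all genes 32.3%) and none was called lower, with a median of 0.57. Sema6a was near 1 CPM, and its chromosome, 18, had medians of 0.68 and 0.61 between the genotypes. The Sema7a levels were 41.6, 43.7, 46.9 and 43.5 CPM in the WT wells and 37.8, 37.3, 36.2 and 35.6 CPM in the KO-labelled wells at day 3. At day 7 Sema7a read 49.7, 50.1, 46.4 and 66.6 CPM and 79.3, 68.3, 85.2 and 85.6 CPM, respectively. Sema7a (chr9:57940135-57962865, plus strand), a lipid-anchored ligand of plexin-C1 and integrins, was close between the genotypes at day 3 and higher in KO-labelled wells at day 7, where 1 WT well, replicate 11, stood at 66.6 CPM. The differences were -0.26 (SE 0.10, adjusted p = 0.0228) and 0.58 (SE 0.09, adjusted p = 2.59e-05). The day 3 call was lost without WT replicate 3 (-0.22, adjusted p = 0.0652), KO replicate 7 (-0.25, adjusted p = 0.0526) or KO replicate 8 (-0.24, adjusted p = 0.0568) and with chromosomes centred (-0.02), and it reversed to 0.24 with the authors' library sizes.

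The 250 bases upstream of Sema6d and of Efna1 are shown because these were the only 2 of the 48 members with a RefSeq window (GRCm38.p6) that hold AAAAAA or TTTTTT. They are written 5′ to 3′ on the strand of the gene; capitals mark the A runs and, in Sema6d, the E-box CACGTG.
Sema6d (chr2:124089719-124089968, plus strand): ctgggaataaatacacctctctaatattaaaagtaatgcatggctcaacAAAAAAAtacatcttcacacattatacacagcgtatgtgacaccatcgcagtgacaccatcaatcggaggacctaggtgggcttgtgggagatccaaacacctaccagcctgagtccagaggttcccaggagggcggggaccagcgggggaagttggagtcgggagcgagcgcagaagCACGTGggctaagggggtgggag
Efna1 (chr3:89280952-89281201, minus strand): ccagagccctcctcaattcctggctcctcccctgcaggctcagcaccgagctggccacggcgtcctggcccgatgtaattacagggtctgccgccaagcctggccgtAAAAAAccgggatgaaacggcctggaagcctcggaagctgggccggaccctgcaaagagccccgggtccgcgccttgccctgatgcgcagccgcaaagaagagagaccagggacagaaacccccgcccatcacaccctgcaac
The run in Sema6d counts as 2 overlapping matches and that in Efna1 as 1. On both strands, 4.17% of the 48 member windows held such a run, against 17.7% of 32851 windows of the same length. CACGTG was in 2.08% against 6.02%, and GGAATG or CATTCC in 14.6%, 7 windows, against 12.6%. The 2 sets are unlike: the 32851 were not limited to 1 window per gene or to the counted genes. Each of the 48 was the window nearest the start used in the deposited table, and that of Sema4d lay 37064 bases away. The absence of these letters from a window this short says nothing about binding elsewhere.

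The 8 plexins, the semaphorin receptors, were all called at both days (all genes 86.4% and 86%): 3 higher and 5 lower at day 3, and 4 and 4 at day 7; with the authors' library sizes 4 were higher and 3 lower at day 3. Plxnb2 and Plxna1, which had the highest plexin levels per kilobase in each group, were lower in KO-labelled cells. Plxnb2, the leading plexin, was at 952 ± 14.2 and 414 ± 17.6 CPM (SD, n = 4) in WT and KO-labelled wells at day 3, then 789 ± 16.7 and 385 ± 26.6 CPM at day 7, lower, with log2 fold changes of -1.20 (SE 0.04, adjusted p = 1.77e-21) and -1.04 (SE 0.04, adjusted p = 5.09e-20). It made up 52.1% ± 0.299 of the plexin level per kilobase in WT at day 3 and 40.7% ± 1.05 in KO-labelled cells at day 7. Plxna1, a receptor of Sema6d and, with neuropilins, of class 3 semaphorins, was at 705 ± 6.95 and 511 ± 18.1 CPM and then at 566 ± 30 and 329 ± 25.4 CPM, lower, with log2 fold changes of -0.46 (SE 0.04, adjusted p = 4.71e-11) and -0.78 (SE 0.04, adjusted p = 4.15e-16). The Plxnd1 levels were 212, 214, 213 and 213 CPM in the WT wells and 58, 57.9, 55.5 and 57.4 CPM in the KO-labelled wells at day 3. At day 7 Plxnd1 read 255, 254, 244 and 265 CPM and 95.8, 94.9, 88.2 and 88.8 CPM, respectively. Plxnd1 (chr6:115954811-115995005, minus strand), the receptor of Sema3e, was lower in every KO-labelled well, with log2 fold changes of -1.90 (SE 0.03, adjusted p = 1.3e-27) and -1.47 (SE 0.03, adjusted p = 1.68e-25). Plxna1 and Plxnd1 lie on chromosome 6, with medians of -0.38 and -0.31; centred on these, the values of Plxnd1 were -1.52 and -1.17. The Plxnc1 levels were 4.17, 4.02, 3.7 and 4.17 CPM in the WT wells and 13.2, 13.3, 15.9 and 14 CPM in the KO-labelled wells at day 3. At day 7 Plxnc1 read 14.7, 14.3, 14.8 and 14.4 CPM and 53.1, 48.1, 46 and 46.8 CPM, respectively. Plxnc1 (chr10:94790866-94944578, minus strand), the receptor of Sema7a, was higher in every KO-labelled well, by 1.81 (SE 0.07, adjusted p = 3.62e-19) and 1.74 (SE 0.06, adjusted p = 1.23e-21), and it rose in WT (1.86) and KO-labelled cells (1.79). The Plxnb1 levels were 32.8, 31.6, 32.6 and 32.8 CPM in the WT wells and 52, 49.7, 49 and 50.9 CPM in the KO-labelled wells at day 3. At day 7 Plxnb1 read 16.3, 16.1, 16.8 and 16.3 CPM and 37.6, 37.8, 31 and 31.4 CPM, respectively. Plxnb1 (chr9:109095436-109119915, plus strand), the osteoblast receptor of Sema4d, was higher in KO-labelled wells by 0.64 (SE 0.05, adjusted p = 3.22e-12) and 1.07 (SE 0.06, adjusted p = 1.57e-16) and fell between the days in both genotypes, -0.99 in WT and -0.55 in KO-labelled cells. Plxna2 was lower in KO-labelled cells (-1.14 and -1.21) and rose by 1.20 and 1.13 between the days, while Plxna3 was lower at day 3 (-0.30) and higher at day 7 (0.49). With the authors' library sizes the day 3 values of Plxna3 and Plxna1 turned to 0.19 (adjusted p = 0.000332) and 0.03 (adjusted p = 0.596).

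**Figure D4:**
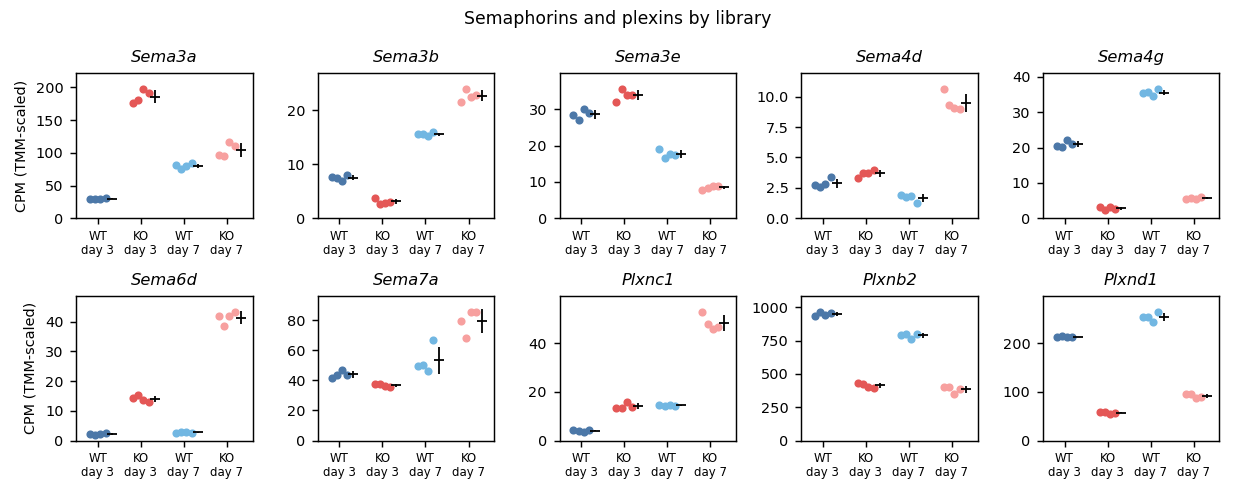
TMM-scaled CPM (y axis, from 0) of 7 semaphorins and 3 plexins in each of the 16 libraries (points), by group (x axis), with the group mean and SD in black. Sema3a is highest in KO-labelled wells at day 3 (176 to 197 CPM), Sema4d and Sema6d in KO-labelled wells at day 7 (9.01 to 10.6 and 38.4 to 43.4 CPM), and Plxnb2 and Plxnd1 are higher in WT at both days.

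Ligands and receptors known as pairs were read side by side at day 7, the osteogenic stage. For ephrinB2 and EphB4, Efnb2 was 1.83-fold higher in KO-labelled cells and Ephb4 was 1.22-fold lower, although the sign of Ephb4 turned with the authors' library sizes. Sema3a was 1.31-fold higher, while Nrp1 and Plxna1 were 3.93-fold and 1.72-fold lower. Ntn1 did not pass (0.06 on the log2 scale) and Unc5b was 1.59-fold higher. Sema4d and Plxnb1 were both higher, 5.63-fold and 2.11-fold, as were Sema7a and Plxnc1, 1.5-fold and 3.33-fold. Sema3e and Plxnd1 were both lower, 2.09-fold and 2.77-fold. Slit3 and Robo1 were lower, 1.63-fold and 3.59-fold, whereas Slit2 was 3.83-fold higher. The difference of Slit3 shrank to -0.13 on the log2 scale with the authors' library sizes. At day 3 the ligand ran the other way for Sema3e, 1.18-fold higher, and Sema7a, 1.2-fold lower, and Ntn1 was 2.31-fold higher, while Ephb4 did not pass. These are RNA levels of the same cultures, and no relation between the members of a pair was tested.

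The leading semaphorin differed in each group when levels were taken per kilobase: Sema3f with 21.1% ± 1.47 of the family in WT at day 3, Sema3a with 31.7% ± 1.08 in KO-labelled cells at day 3, Sema5a with 20.7% ± 1.06 in WT at day 7 and Sema7a with 25.4% ± 1.8 in KO-labelled cells at day 7. The Slits, netrins and Eph receptors also changed their leading member between groups, whereas Plxnb2, Efnb1, Robo1 and Unc5b led their families in all 4.

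**Figure D5:**
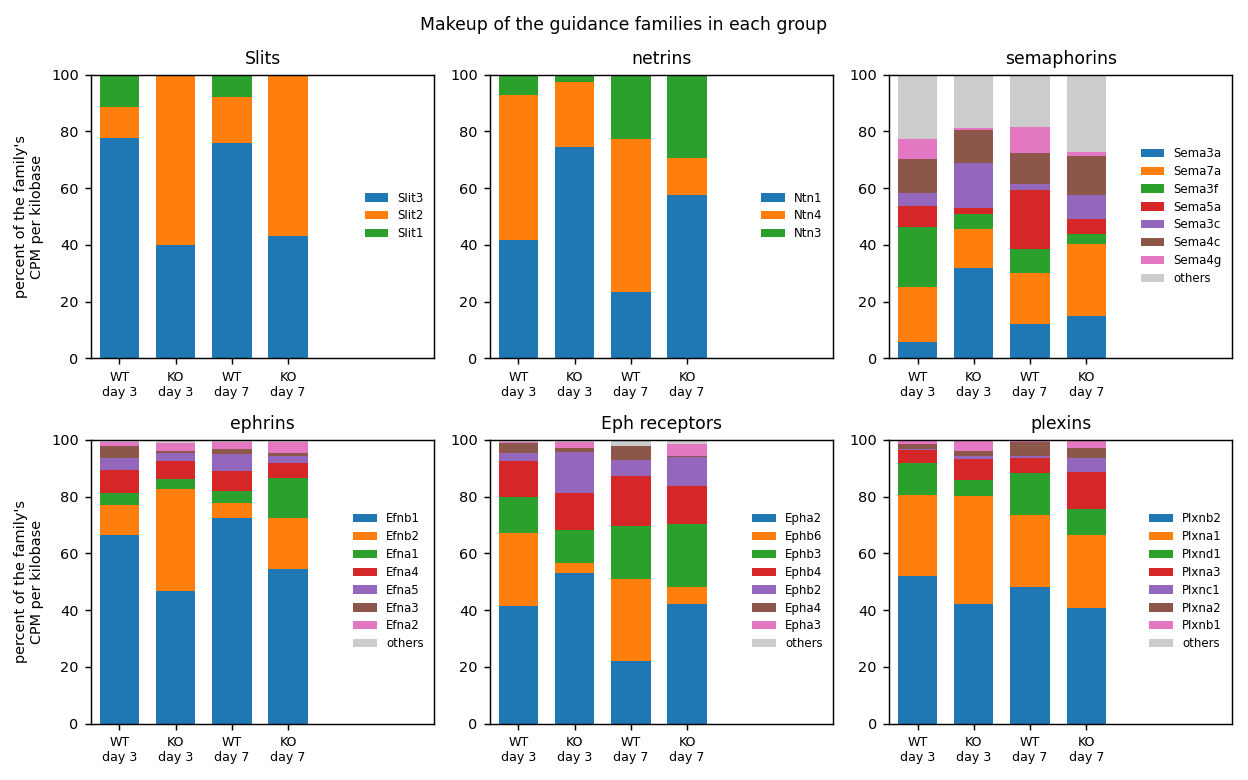
Stacked bars give each member's percent of its family's summed CPM per kilobase (y axis) in the mean of each group (x axis), for 6 families; members past the leading ones are drawn as others. Slit3 leads the Slits in WT (77.6% and 76%) and Slit2 in KO-labelled cells (59.8% and 56.7%). Among the netrins Ntn4 leads in WT (51.2% and 53.9%), at day 3 by a smaller margin over Ntn1 (41.7% and 23.4%). Ntn1 leads in KO-labelled cells (74.3% and 57.6%).

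Guidance signals need co-receptors and cytoplasmic effectors, and 72 of 77 listed partner genes were in the table; Dcc, Ntng1, Dpysl5, Trim9 and Trim67 were not analysed here. The list was drawn up with earlier results of these data known. At day 3, 39 partners were higher (all genes 43%) and 25 lower (43.4%) in KO-labelled cells, and at day 7, 32 (41.7%) and 32 (44.3%); 22 of 72 passed with at least 2-fold at day 3 (all genes 29%) and 20 at day 7 (30.7%). Their median log2 fold changes of 0.24 (day 3) and 0.03 (day 7) compared with 0.00 and -0.03 over all genes, and a median size of 0.55 and 0.62 put them close to all genes (0.57 and 0.59) and below the 56 ligands and receptors. From day 3 to day 7, 31 rose (all genes 32.3%) and 29 fell (34.9%) in WT, and 25 rose (40.6%) and 39 fell (39.3%) in KO-labelled cells. With the authors' library sizes the lower count at day 3 dropped to 10, and the counts at day 7 became 51 higher and 17 lower. Among the co-receptors, Nrp1, which binds Sema3a, was at 149 ± 1.77 and 120 ± 5.25 CPM (SD, n = 4) in WT and KO-labelled wells at day 3, then 132 ± 4.09 and 33.4 ± 1.01 CPM at day 7. It was lower, with log2 fold changes of -0.32 (SE 0.03, adjusted p = 1.16e-09) and -1.98 (SE 0.04, adjusted p = 1.65e-27), with an interaction of -1.66 (SE 0.05, adjusted p = 1.93e-21). Nrp2, which binds Sema3f, was nearly level, 0.20 and -0.08, and the netrin co-receptor Neo1 was slightly lower, -0.35 and -0.26. With the authors' library sizes Nrp1 turned to 0.18 at day 3, Nrp2 to 0.49 at day 7 and Neo1 to 0.14 and 0.31. Gpc1, a heparan sulfate proteoglycan that binds Slits, went from 674 ± 28 and 558 ± 21 CPM at day 3 to 249 ± 12.4 and 771 ± 74.5 CPM at day 7, where the genotypes differed by 1.63 (SE 0.05, adjusted p = 1.21e-18). Sdc1, a syndecan, was lower in KO-labelled cells at both days, -1.43 and -1.19. Dscam went from higher, 2.08 (SE 0.13, adjusted p = 1.36e-14), to lower, -2.25 (SE 0.23, adjusted p = 4.93e-10), at no more than 6.44 CPM.

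Among the effectors, Dpysl3, a collapsin response mediator of semaphorin signalling, was at 91.9 ± 3.24 and 687 ± 8.64 CPM at day 3, then 164 ± 9.56 and 353 ± 3.28 CPM at day 7, higher by 2.90 (SE 0.04, adjusted p = 3.13e-31) and 1.10 (SE 0.04, adjusted p = 5.71e-22). Its relatives, named here after their values were seen, ran the other way: Dpysl4 was at 3.7 ± 0.0898 CPM in WT and 0.0493 ± 0.0409 CPM in KO-labelled cells at day 3, -6.06 (SE 0.30, adjusted p = 2.07e-17), and differed by -6.11 (SE 0.30, adjusted p = 1.73e-17) at day 7, Crmp1 differed by -4.29 (SE 0.22, adjusted p = 8.04e-17) and -4.58 (SE 0.36, adjusted p = 1.68e-12) from at most 4.85 CPM, and Dpysl2 by -0.17 and -0.39, values that turned to 0.33 and 0.18 with the authors' library sizes. Dpysl3 lies on chromosome 18, with medians of 0.68 and 0.61. Chn1, a Rac GTPase-activating protein that acts below EphA4, was lower, at 21.4 ± 0.625 and 2.84 ± 0.298 CPM and then 25.9 ± 1.13 and 1.01 ± 0.218 CPM, with log2 fold changes of -2.92 (SE 0.08, adjusted p = 1.62e-23) and -4.67 (SE 0.09, adjusted p = 7.47e-27). Epha4 itself had log2 fold changes of -1.38 and -2.93. Rasa1, a Ras GTPase-activating protein that binds Eph receptors, was higher by 1.32 and 1.94, on chromosome 13 with medians of 0.82 and 0.7. Rnd1, a GTPase that binds plexins, was higher by 0.58 and 2.25 and fell between the days in both genotypes (-2.91 in WT and -1.24 in KO-labelled cells). Limk2, a kinase of cofilin, was lower at day 3, -1.18 (SE 0.04, adjusted p = 1.98e-20), and Tiam1, a Rac exchange factor, changed between the days by -0.92 (SE 0.05, adjusted p = 1.28e-16) in WT and -2.01 (SE 0.05, adjusted p = 1.5e-24) in KO-labelled cells. Srgap1, a Slit-Robo GTPase-activating protein, rose by 1.88 (SE 0.06, adjusted p = 1.12e-20) and 1.41 (SE 0.06, adjusted p = 7.04e-18), while Flrt2, a ligand of Unc5 receptors, gave a change of -0.05 (SE 0.05, adjusted p = 0.363) in KO-labelled cells, which did not pass, and one of 1.80 (SE 0.06, adjusted p = 1.6e-20) in WT, with an interaction of -1.86 (SE 0.08, adjusted p = 1e-17). Ngef, an exchange factor bound by EphA4, rose by 3.74 and 1.49 from low levels, and Ntng2, a lipid-anchored netrin relative, rose by 0.85 in KO-labelled cells. Draxin, a secreted cue that binds netrins and Dcc, rose in WT to 21.8 ± 1.03 CPM at day 7 against 3.84 ± 0.597 CPM in KO-labelled cells, a difference of -2.50 (SE 0.08, adjusted p = 1.79e-21). The highest log2 fold change of the partners at both days was that of Tfpi, a coagulation inhibitor listed with the other ligands, at 0.47 ± 0.152 and 39.1 ± 1.11 CPM at day 3 and 0.852 ± 0.0979 and 39 ± 2.79 CPM at day 7, higher by 6.40 (SE 0.10, adjusted p = 8.78e-29) and 5.51 (SE 0.10, adjusted p = 3.15e-28).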

How the data were processed

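MSPC RNA was sequenced as strand-specific, paired-end libraries from poly(A)-selected RNA, per the labels' protocols. The deposited table gives whole-number counts per gene, gene length in bases (a column of another kind) and a normalized signal per library; STAR 2.4.2a, featureCounts, edgeR and mm10 are named in the submitters' processing notes, with no roles, and no annotation is named. The normalized signal, deposited by the authors, served only to derive the library sizes behind it.

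All 56 genes whose name matched the family names were kept, with no filter on values; filterByExpr removed 0 of the 13474 genes. Counts were fitted with edgeR 4.0.16 (R 4.3.3; TMM factors 0.949 to 1.05; robust quasi-likelihood test; 4 group means over 16 libraries; Benjamini-Hochberg adjustment over all genes; threshold 0.05). The SE is the log2 fold change divided by the root of the test statistic. The fit was also run on simulated counts, with known changes in a small set of genes in the KO-labelled group of day 3. That simulation held no shift over all genes or over a chromosome, so it cannot decide between scalings. Levels per kilobase used the deposited length. No 2 libraries of a group agreed within sampling noise (chi-square per degree of freedom 2.33 to 17.88 over 24 pairs), so each counted as 1. The 4 wells of a group are technical replicates, so the p-values cover the spread between wells and not between animals.

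Given well by well are, per comparison, the 3 highest and 3 lowest called members of at least 5 CPM, the 4 largest interactions, and members with a known role in bone; partner genes follow a like rule, 3 per direction, plus neuropilins and Neo1. Members and lists were chosen with earlier results of these data known. Ephb2, Ephb6 and other members are given as group means. Alternatives were RLE factors, totals only, the authors' library sizes, chromosomes centred on their medians, DESeq2 1.42.0, a filter of 1 CPM in 4 libraries, no filter, only the groups compared, wells 1 and 1b and 10 and 10b summed, and each library left out. Gene positions matched GENCODE M21 for all 56 members; promoter windows are from RefSeq, GRCm38.p6, for 48 of 56.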

Additional observations from a re-analysis of the deposited data

Results flagged for a closer look

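In 2 of 116 group values tested, 1 well stood apart from the other 3 by Dixon's criterion for 4 samples, fewer than the about 1 in 20 that chance gives. WT replicate 10 read 189 CPM of Sema5a at day 7, against 206 to 209 CPM in the others. WT replicate 10b read 33.3 CPM of Efnb2 at day 7, against 32 to 32.1 CPM.

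The genotype difference changed between the days, by the test of the interaction, for 19 members that either changed by at least 2-fold or were called in opposite directions. Over all genes, 16.2% had a called interaction of at least 2-fold and 10.6% were called in opposite directions. The share of all genes under the joint rule was not computed. On the log2 scale, the KO-labelled libraries gained most for Sema4d (2.13), Sema4f (2.11), Unc5a (1.82), Sema3b (1.80) and Epha3 (1.70), followed by Efna1 (1.57), Efna3 (1.39), Sema6d (1.22) and Sema4a (1.04). Smaller gains with a change of direction were those of Sema7a (0.84), Plxna3 (0.79) and Ephb3 (0.52). They lost most for Ntn4 (-2.50), Sema3a (-2.26), Epha4 (-1.54), Ephb2 (-1.31), Sema3e (-1.31) and Ntn1 (-1.15), and with a change of direction for Efna2 (-0.64). With the authors' library sizes, Sema7a, Plxna3, Ephb3 and Efna2 were no longer called in opposite directions.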

How the results depend on the processing

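For the 29 members given well by well, of 3305 values of the 145 log2 fold changes under the alternatives, 3253 kept direction and side of the threshold, 41 lost their call, 4 gained one and 7 changed sign. With chromosomes centred, the day 3 genotype difference changed sign for Sema4d (-0.36), Epha2 (-0.26) and Ephb4 (-0.12). With the authors' library sizes it changed sign for Unc5c (0.52), Ephb4 (0.29) and Efna2 (0.36) at day 7 and for Sema7a (0.24) at day 3. Over all 56 members the called differences that also changed sign were Ephb3 (0.31), Plxna3 (0.19) and Plxna1 (0.03) at day 3 and Epha1 (0.28) at day 7 with the authors' library sizes, and Epha1 (0.01) at day 7 with chromosomes centred; of the 72 partners, 13 changed sign at each day with the authors' library sizes. The 8 members called in opposite directions at the days became 4 with the authors' library sizes. Of the 2320 values with 1 library left out, 24 lost their call and 0 changed sign. The counts called over all 56 members in each comparison and direction moved by less than 1.5 times under every alternative run. Among the partner genes, those lower at day 3 numbered 10 with the authors' library sizes (main 25), those past 2-fold at day 3 numbered 14 with chromosomes centred (main 22), and those at day 7 numbered 51 higher and 17 lower with the authors' library sizes (main 32 and 32). The cause was not tested. No paired analysis was possible because the groups share no well codes. Members under 1 CPM, such as Plxna4, Robo3 and Slit1 in KO-labelled wells, rest on few counts.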
